A study of Homo sapiens with 11 samples.

Results

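Mucin-type O-glycans are built by a small set of Golgi enzymes, and 10 of their genes were followed here by RNA-Seq in prostate cancer cells with and without raised ST6GAL1, the sialyltransferase that caps galactose with α2-6 linked sialic acid. The 10 genes were GALNT1, GALNT2, GALNT3, GALNT4, GALNT7, GALNT10, GALNT12, C1GALT1, C1GALT1C1 and GCNT1, and all 10 had a row in both count tables, out of 28395 genes listed by Entrez identifier in each. They were taken by name, as initiating GALNT transferases and as the enzymes of the core 1 and core 2 structures. The rule uses no expression value, but it was set with earlier results of these data known. The cells were PC3 and DU145, established human lines from prostate cancer. In each, lentiviral particles carrying ST6GAL1 or a negative control were used to make stable populations, so that control cells had also been transduced. For PC3 there were 3 libraries with the control virus and 3 with ST6GAL1, and for DU145 3 with the control virus and 2 with ST6GAL1, the last carrying the replicate numbers 2 and 3. The labels call these biological replicates, and the sources used here do not say whether they come from separate transductions, so that p-values measure the spread between these cultures.

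O-GalNAc glycosylation starts when a polypeptide GalNAc-transferase (GALNT) attaches GalNAc to a serine or threonine, giving the Tn antigen. GALNT1 and GALNT2 are broadly expressed and act on bare peptides, GALNT3 is best known for protecting the hormone FGF23 from cleavage, and GALNT4, GALNT7, GALNT10 and GALNT12 act mainly on peptides that already carry GalNAc nearby. C1GALT1 then adds galactose to form core 1 (the T antigen) and needs the chaperone C1GALT1C1, also called Cosmc, to fold, while GCNT1 adds the GlcNAc branch that turns core 1 into core 2. Truncated and sialylated forms of these glycans are well-known tumour antigens, and ST6GAL1 itself works mainly on N-glycans.

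GALNT3, GALNT10 and GALNT12 were the members whose change with ST6GAL1 differed between the lines by the interaction test (GALNT12 near the threshold, with a call lost in 10 of 11 fits that left out a library), so the sequences directly upstream of their listed starts are shown. They come from the RefSeq promoter table on GRCh38.p14, which held 9 of the 10 members (not GALNT4) with 14 starts. Capitals mark the GC box letters GGGCGG and the E-box letters CACCTG, searched on both strands and allowed to overlap one another. Parts of each 250-base window that overlap an annotated exon were left out, which leaves chr2:165794248-165794324 on the minus strand for GALNT3, chr5:154190483-154190729 on the plus strand for GALNT10 and chr9:98807565-98807669 on the plus strand for GALNT12. The listed start of GALNT3 lies inside the gene, which reaches to 165794692 on this strand. Its stretch is therefore upstream of that internal start and not of the whole gene.
GALNT3: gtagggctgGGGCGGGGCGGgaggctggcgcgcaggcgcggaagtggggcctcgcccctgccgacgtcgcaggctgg
GALNT10: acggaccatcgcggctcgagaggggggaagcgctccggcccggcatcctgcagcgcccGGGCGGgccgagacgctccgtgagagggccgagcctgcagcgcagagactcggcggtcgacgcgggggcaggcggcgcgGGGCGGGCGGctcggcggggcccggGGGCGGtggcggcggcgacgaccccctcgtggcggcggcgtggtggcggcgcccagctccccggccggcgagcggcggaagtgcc
GALNT12: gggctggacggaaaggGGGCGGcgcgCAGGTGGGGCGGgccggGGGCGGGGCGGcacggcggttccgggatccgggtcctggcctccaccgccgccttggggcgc

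The GALNT3 stretch held 2 GC boxes, the GALNT10 stretch 4, and the GALNT12 stretch 4 together with 1 E-box that directly adjoins a GC box. Over the whole 250 bases the counts were 2, 4 and 4 GC boxes, and GALNT3 and GALNT12 each held 1 E-box, that of GALNT3 in the part left out. Of 35116 promoters in the table, 42.6% held a GC box and 17.5% the letters CACCTG in the 250 bases before the start. GC boxes were not particular to these 3 genes. Starts of the other members held from 0 (a GALNT1 start) to 5 (another GALNT1 start), with 4 for C1GALT1 and for C1GALT1C1. The windows of GALNT3, GALNT10 and GALNT12 were 71.6%, 82.4% and 67.2% G or C, where the median of all promoters was 58%. These matches are letters in a window, and no binding was measured.

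ST6GAL1 was read at 33 to 53 counts in the PC3 control libraries and 490 to 575 in the overexpression libraries, and at 152 to 216 against 5350 and 5376 in DU145, in the direction of the labels in both lines. Counts on genes totalled between 13194485 and 18201359 per library, and 3 counts, taken as the floor, corresponded to 0.165 to 0.227 CPM, the count scaled to a fixed library total (counting error only). No pair of libraries agreed within sampling noise. The 2 DU145 overexpression libraries lay furthest apart, with a chi-square per degree of freedom of 13.3 where the other replicate pairs had 1.39 to 5.46. All 5 epithelial markers had counts in every group, with summed levels of 864 to 899.9 CPM in PC3 and 1044 to 1339 CPM in DU145. These levels were lower in the DU145 overexpression libraries (1044 and 1176 CPM) than in DU145 controls (1302 to 1339 CPM), with 4 of 5 markers lower and 1 higher at an adjusted p under 0.05, and the part of this in the results below was not tested. The prostate markers KLK2 and KLK3 were at 0 in all groups, and CD3E was at 0 in all groups among 8 leukocyte, endothelial and fibroblast markers, whose summed level was at most 10.4 CPM in DU145. In PC3 it was 31.8 to 33.6 CPM in controls and 24.9 to 25.4 CPM with ST6GAL1, and its part in the results was not tested.

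Among the 7 GALNT members GALNT2 had the highest transcript level in both lines and GALNT4 the lowest. Levels are compared between genes only per kilobase of transcript, as normalized CPM per kb. In PC3 controls GALNT2, on chromosome 1 from 230057789 to 230282122, was read at 106.8 ± 2.14 CPM per kb (SD, n = 3), and GALNT1, on chromosome 18 from 35580922 to 35711834, at 32.8 ± 1.20. GALNT10 followed at 16.6 ± 0.478 and GALNT7 at 9.02 ± 0.467. The chaperone C1GALT1C1 (8.51 ± 0.370), GALNT3 (7.16 ± 0.355) and C1GALT1 (6.54 ± 0.297) came next, GALNT12 (1.37 ± 0.0908), GCNT1 (0.257 ± 0.0141) and GALNT4 (0.120 ± 0.0408) last. In this order GALNT7 overlapped C1GALT1C1 in range and GALNT3 overlapped C1GALT1, and the other neighbours did not overlap.

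DU145 controls had the same 2 leading enzymes and a different order below them. GALNT2 was read at 116.1 ± 2.00 CPM per kb (SD, n = 3) and GALNT1 at 59.2 ± 2.60. C1GALT1C1 (14.2 ± 0.708), GALNT7 (13.5 ± 0.833) and GALNT12 (12.97 ± 0.164) formed a run of neighbours whose ranges overlapped, ahead of C1GALT1 (11.4 ± 0.136). GALNT10 was at 5.86 ± 0.206, GCNT1 at 3.02 ± 0.132, GALNT3 at 0.937 ± 0.312 and GALNT4 at 0.0595 ± 0.0309. GALNT4 was close to the floor in both lines, with 6 to 16 counts per library in PC3 and 2 to 8 in DU145. It lies on chromosome 12 from 89519412 to 89524796 within the read-through gene POC1B-GALNT4, which is listed at 0 in every library, so that its reads may not all have been assigned and its level is uncertain.

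**Figure D1:**
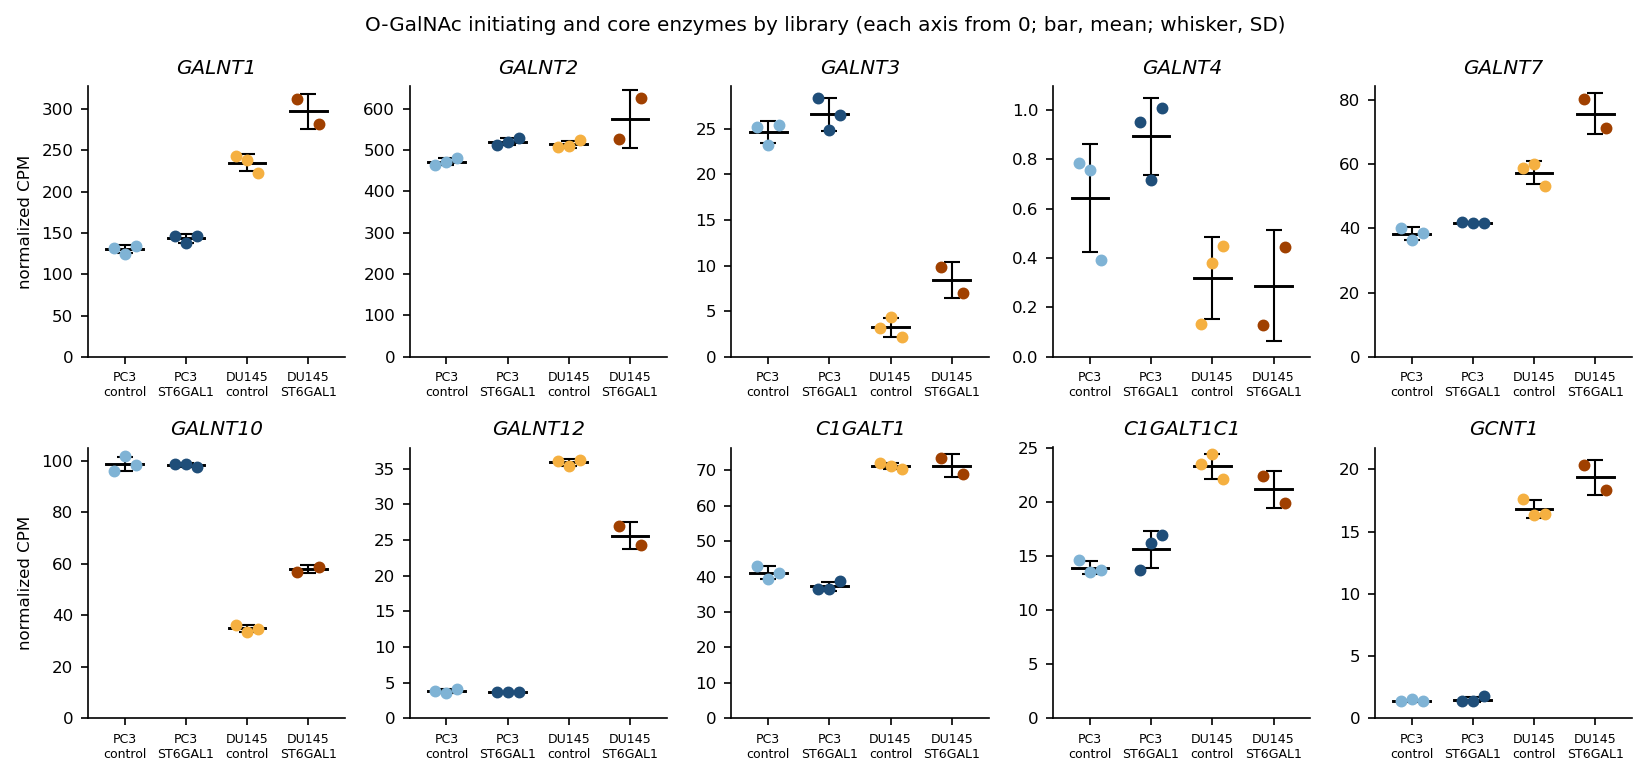
Normalized CPM of the 10 genes in each of 11 libraries, with each vertical axis starting at 0; points are libraries, horizontal bars group means and whiskers SD (n = 3, and n = 2 for DU145 with ST6GAL1). GALNT3 and GALNT10 sit higher and GALNT12 lower in both DU145 overexpression libraries than in any DU145 control, while in PC3 these 3 genes overlap between the groups.

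To ask whether raised ST6GAL1 went with a change in O-glycan enzyme transcripts, each line was fitted on its own with edgeR's quasi-likelihood test, and calls required both a Benjamini-Hochberg adjusted p under 0.05, over all tested genes, and a log2 fold change beyond 0.58 in either direction. In PC3, none of the 10 members was called, where 5.38% of 13544 tested genes were (3.61% higher and 1.76% lower). By edgeR 4 of the 10 had an unadjusted p under 0.05, by limma-voom 4 and by DESeq2 3, and neither of the other tools called a member. At an adjusted p under 0.05 alone, GALNT1 and GALNT2 were higher and C1GALT1 lower, 3 of 10 members against 37.3% of all genes. The libraries of the 2 groups did not overlap for 4 of 10 members, 3 higher and 1 lower, against 46.1% of all genes (23.2% higher and 23% lower). Their median log2 fold change was 0.11, where that of all genes was -0.00.

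The PC3 changes that passed the adjusted p were all small. GALNT2 was read at 463, 472 and 482 CPM in PC3 controls and at 512, 520 and 528 with ST6GAL1, a log2 change of 0.14 ± 0.0252 (SE, adjusted p = 1.91e-05 by edgeR). GALNT1 was read at 132, 125 and 134 CPM in controls and at 146, 137 and 146 with ST6GAL1, a log2 change of 0.14 ± 0.0348 (SE, adjusted p = 0.00177 by edgeR). For both enzymes every overexpression library lay above every control.

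C1GALT1, the core 1 synthase on chromosome 7 from 7157377 to 7248616, was read at 42.94, 39.21 and 41.02 CPM in PC3 controls and at 36.5, 36.5 and 38.6 with ST6GAL1. It fell by 0.14 on the log2 scale (standard error 0.0531, adjusted p = 0.0298 by edgeR), with groups that did not overlap, and the adjusted p lay between 0.0135 and 0.150 when single libraries were omitted, passing or not by which was omitted, and was 0.134 with DESeq2. Its chaperone C1GALT1C1, on chromosome X from 120625674 to 120630054, had a log2 fold change of 0.17 that did not pass (95% interval -0.00 to 0.34, adjusted p = 0.119 by edgeR). Overexpression library 1, at 13.7 CPM, lay among the controls. The adjusted p of C1GALT1C1 ran from 0.0280 to 0.418 by edgeR when single libraries were omitted.

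The remaining PC3 members did not pass. GALNT7 had a log2 fold change of 0.12 (95% interval 0.01 to 0.23 before adjustment, adjusted p = 0.0686) and GALNT3 of 0.11 (-0.03 to 0.24, adjusted p = 0.215). GALNT10 was at 96.1, 102 and 98.5 CPM in controls and at 98.9, 98.7 and 97.4 with ST6GAL1, with an interval of -0.08 to 0.07 around a log2 fold change of -0.01, the narrowest bound on a change among the members after those of GALNT1 and GALNT2. GALNT12 (-0.37 to 0.28), GCNT1 (-0.43 to 0.57) and GALNT4 (-0.26 to 1.14) had low counts in PC3, and their intervals do not exclude changes of moderate size.

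In DU145, GALNT3 and GALNT10 rose with ST6GAL1 overexpression and were called, 2 of 9 tested members against 8.94% of 13676 tested genes (4.33% in the higher direction). GALNT4 did not pass the expression filter in this line. At an adjusted p under 0.05 alone, GALNT1 and GALNT7 were also higher and GALNT12 was lower, 5 of 9 members against 20.1% of genes (10.7% higher and 9.42% lower). Limma-voom and DESeq2 gave the same numbers of called members and of members with an adjusted p under 0.05. The groups did not overlap for 7 of 9 members, 6 higher and 1 lower, against 48.4% of all genes (24.7% higher and 23.7% lower), and the members' median log2 fold change was 0.21 against -0.00. A trend on transcript GC content and length took up 8.23% of the variance of log2 fold changes in DU145, against 0.634% in PC3. With it subtracted 2 members were still called, and its part in the median and in the overlaps was not tested.

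GALNT3, on the minus strand of chromosome 2 from 165747588 to 165794692, was read at 48, 68 and 29 counts in the DU145 controls and at 152 and 125 counts with ST6GAL1. As normalized levels these were 3.17, 4.31 and 2.17 CPM against 9.80 and 6.98 CPM, and the groups did not overlap. The log2 fold change was 1.36 (standard error 0.257, adjusted p = 0.00519 by edgeR), and omitting any single library gave 1.09 to 1.62, called each time. This was the largest fold change and one of the lowest levels among the tested members, and with ST6GAL1 the mean (8.39 ± 1.99 CPM, SD, n = 2) was 34.1% of that in PC3 controls, where the DU145 controls were at 13.1%.

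GALNT10, on chromosome 5 from 154190733 to 154420984, was read at 36.1, 33.7 and 34.9 CPM in DU145 controls and at 56.99 and 58.95 with ST6GAL1. The 2 overexpression libraries were close to each other and far above all controls. The log2 change of 0.74 ± 0.0870 (SE, adjusted p = 4.20e-05 by edgeR) was the most certain of the member changes in this line, and omitting any single library gave 0.69 to 0.75. The mean reached 58.7% of the level in PC3 controls, from 35.3% in DU145 controls.

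GALNT12, on chromosome 9 from 98807670 to 98850081, went the other way. It was read at 36.0, 35.3 and 36.2 CPM in DU145 controls and at 26.9 and 24.2 with ST6GAL1, and fell by 0.48 on the log2 scale (standard error 0.0992, adjusted p = 0.00342 by edgeR), which is short of the fold threshold. Both overexpression libraries lay below all 3 controls, which were close to one another.

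GALNT1 and GALNT7 rose by less. GALNT1 was at 243, 239 and 223 CPM in controls and at 312 and 283 with ST6GAL1, a log2 change of 0.35 ± 0.0772 (SE, adjusted p = 0.00577 by edgeR). GALNT7, on chromosome 4 from 173168811 to 173323967, was at 58.8, 59.8 and 53.3 CPM and at 80.1 and 71.1, a log2 change of 0.40 ± 0.0892 (SE, adjusted p = 0.00544 by edgeR). In both genes the groups did not overlap, and overexpression library 2 was the higher of the pair.

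GALNT2, the most abundant member, was not shown to change in DU145, where controls were at 506, 510 and 523 CPM and the 2 overexpression libraries at 526 and 625, both above the controls and far apart from each other. Its log2 fold change was 0.17 (95% interval -0.01 to 0.35, adjusted p = 0.179 by edgeR), and without overexpression library 2 it was 0.28 (adjusted p = 0.0178), without library 3 0.0453 (adjusted p = 0.707). None of the 3 core enzymes passed. C1GALT1 was at 72.1, 71.3 and 70.4 CPM in controls and at 73.6 and 69.0 with ST6GAL1 (log2 fold change 0.01, 95% interval -0.16 to 0.18). C1GALT1C1 had a log2 fold change of -0.14 (-0.37 to 0.10) and GCNT1, on chromosome 9 from 76393869 to 76507416, of 0.21 (-0.04 to 0.46). The GCNT1 groups did not overlap (17.6, 16.4 and 16.4 against 20.4 and 18.4 CPM), and those of C1GALT1C1 did (23.5, 24.4 and 22.1 against 22.4 and 19.9 CPM). Near copies could take some C1GALT1C1 reads, and the retrogene C1GALT1C1L on chromosome 2 had 31 to 42 counts in DU145 and 0 in PC3.

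**Figure D2:**
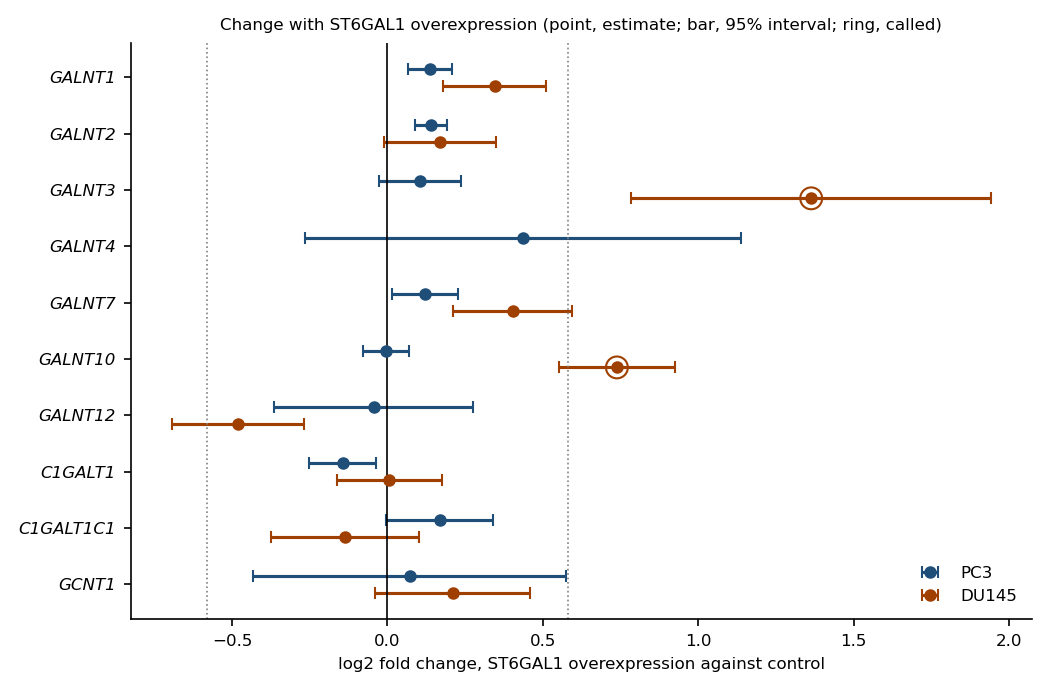
Log2 fold change of each gene with ST6GAL1 overexpression against control in PC3 (blue) and DU145 (brown) from the fit of that line; bars are 95% intervals, dotted lines the fold threshold of 0.58 and rings the called genes. GALNT3 (1.36) and GALNT10 (0.74) in DU145 are the ringed genes, the PC3 points from GALNT1 to C1GALT1C1 other than GALNT4 lie within 0.17 of zero, and GALNT4 has no DU145 point.

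A joint fit of the 11 libraries asked whether the response of a gene depended on the line (an interaction term, called at an adjusted p under 0.05 with no fold threshold). Of the 10 members 3 were called, 2 with a higher and 1 with a lower value in DU145, against 19.7% of 14952 genes (10.4% and 9.36%). GALNT10 changed by 0.74 more in DU145 than in PC3 on the log2 scale (standard error 0.0779, adjusted p = 1.18e-06 by edgeR), and GALNT3 by 1.24 more (standard error 0.232, adjusted p = 0.00116). Both differences remained called with every tool, filter and left-out library. GALNT12 changed by -0.44 (standard error 0.152, adjusted p = 0.0473), and this call was lost with limma-voom, DESeq2, RLE factors, no filter or a replicate block, and when any library other than DU145 overexpression library 2 was left out, with adjusted p-values up to 0.144.

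The other differences between the lines did not pass. GALNT7 differed by 0.28 (95% interval 0.07 to 0.48 before adjustment, adjusted p = 0.0528) and GALNT1 by 0.20 (0.04 to 0.37, adjusted p = 0.0741). Without DU145 overexpression library 3 both were called, at 0.35 (adjusted p = 0.00319) and 0.26 (adjusted p = 0.00344), and that fit rests on 1 overexpression library in DU145 that is assumed to vary like the others. GALNT7 was also called without control library 2 of DU145 (0.31, adjusted p = 0.0489) or of PC3 (0.31, adjusted p = 0.0454), and with a filter of at least 10 counts in every sample (0.28, adjusted p = 0.0410). C1GALT1C1 differed by -0.31 (adjusted p = 0.112) and was called without DU145 overexpression library 2 (-0.40, adjusted p = 0.0373) or PC3 overexpression library 1 (-0.40, adjusted p = 0.0477). C1GALT1 differed by 0.14 (adjusted p = 0.267), GCNT1 by 0.13 (adjusted p = 0.785), GALNT2 by 0.03 (adjusted p = 0.887) and GALNT4 by -0.52 (adjusted p = 0.690).

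The control cells of the lines differed in most of these genes. Between DU145 and PC3 controls 8 of 10 members were called, 6 higher and 2 lower in DU145, in a comparison in which 64.9% of 14952 genes were called (31.7% higher and 33.2% lower) and 86.3% had an adjusted p under 0.05. The groups did not overlap for 9 of 10 members, against 87.8% of genes. The lines are in separate count tables, and line and table cannot be told apart.

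GCNT1, the core 2 branching enzyme, was higher in DU145, at 17.6, 16.4 and 16.4 CPM against 1.3998, 1.518 and 1.370 in PC3 (log2 change 3.55 ± 0.132 (SE), adjusted p = 2.52e-15 by edgeR). GALNT12 was higher too, at 36.0, 35.3 and 36.2 CPM against 3.81, 3.54 and 4.04 in PC3 (log2 change 3.24 ± 0.0920 (SE), adjusted p = 3.68e-17). GCNT1 was thus 11.7-fold and GALNT12 9.43-fold higher in DU145, and neither gene overlapped between the lines. In DU145 controls GALNT3 was lower, by a log2 change of -2.91 ± 0.158 (SE, adjusted p = 2.10e-11) and GALNT10 by -1.501 (standard error 0.0536, adjusted p = 1.29e-15), which makes them the 2 members that were low in DU145 and rose there with ST6GAL1. GALNT12, high in DU145 and low in PC3, fell in DU145. Not all members moved towards PC3. The means of GALNT1 and GALNT7 went from 180% and 150% of PC3 controls to 228% and 197%. GCNT1 and GALNT2 also moved away and C1GALT1C1 moved closer, none of them passing in DU145. Both comparisons use the same DU145 controls, so a low value in those controls also raises the change with ST6GAL1.

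GALNT1 (0.85), C1GALT1 (0.79), C1GALT1C1 (0.74) and GALNT7 (0.58) were moderately higher in DU145 controls. These 4 fell under the fold threshold once a trend of fold change on transcript GC content and length had been subtracted, to 0.58, 0.46, 0.56 and 0.31, while GCNT1, GALNT12, GALNT3 and GALNT10 stayed called. GALNT7 sat at the threshold and lost its call without DU145 control 1 or 2, PC3 control 2 or PC3 overexpression 1, at 0.54 to 0.57. GALNT2 differed by 0.12 (adjusted p = 0.0416), under the threshold, and GALNT4 by -1.02 (adjusted p = 0.0570) on few counts, with an adjusted p between 0.0254 and 0.0456 without DU145 control 3, PC3 control 3 or either DU145 overexpression library.

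**Figure D3:**
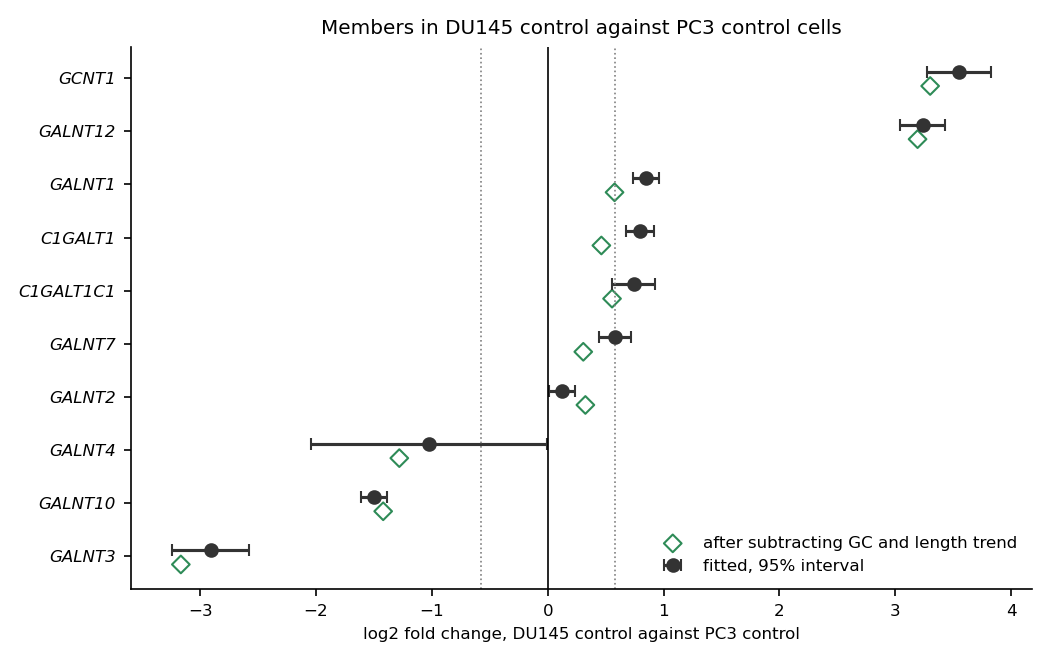
Log2 fold change of DU145 control against PC3 control for each gene, ordered by size; circles with bars are the fitted values and 95% intervals, diamonds the values after a GC and length trend was subtracted, and dotted lines the fold threshold of 0.58. GCNT1 (3.55) and GALNT12 (3.24) are far to the right and GALNT3 (-2.91) and GALNT10 (-1.501) to the left under both.

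To set the 7 GALNT members within the whole family, CPM per kb were summed over all 20 GALNT genes. In PC3 the sum was 214, 212 and 222 in controls and 231, 229 and 234 with ST6GAL1, a ratio of 1.07. In DU145 it was 279, 279 and 271 in controls and 301 and 313 with ST6GAL1, a ratio of 1.11. Every overexpression library lay above every control of its line, and the exact two-sided permutation p was 0.1 in each line, which is the smallest that these group sizes allow.

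The makeup of this pool was led by GALNT2 in every library. GALNT2 made up 49.4% ± 0.768 of the PC3 control sum (SD, n = 3) and 50.9% ± 0.674 with ST6GAL1, and 42.0% ± 1.41 and 42.4% ± 4.05 in DU145 (SD, n = 3 and n = 2). In DU145 the share of GALNT1 was 21.4% ± 0.615 in controls and 24.5% ± 2.38 with ST6GAL1, that of GALNT10 2.12% ± 0.0836 and 3.17% ± 0.00873, and that of GALNT12 4.69% ± 0.128 and 3.02% ± 0.307. GALNT3 remained a small part, at 0.338% ± 0.108 and 0.799% ± 0.211. For these 4 shares the DU145 groups did not overlap (exact permutation p = 0.1 each, the smallest possible). The same p was reached by the DU145 shares of GALNT6, GALNT7, GALNT14, GALNT15, GALNT16 and GALNT18, so it was not particular to these 4. In PC3 the shares of GALNT10 (7.67% to 7.14%) and GALNT12 (0.635% to 0.576%) fell, also at the smallest possible p. Outside the members, the DU145 share of GALNT14 went down from 7.53% ± 0.445 to 5.35% ± 0.156, and that of GALNT6 went up from 0.463% ± 0.0241 to 0.745% ± 0.0254.

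**Figure D4:**
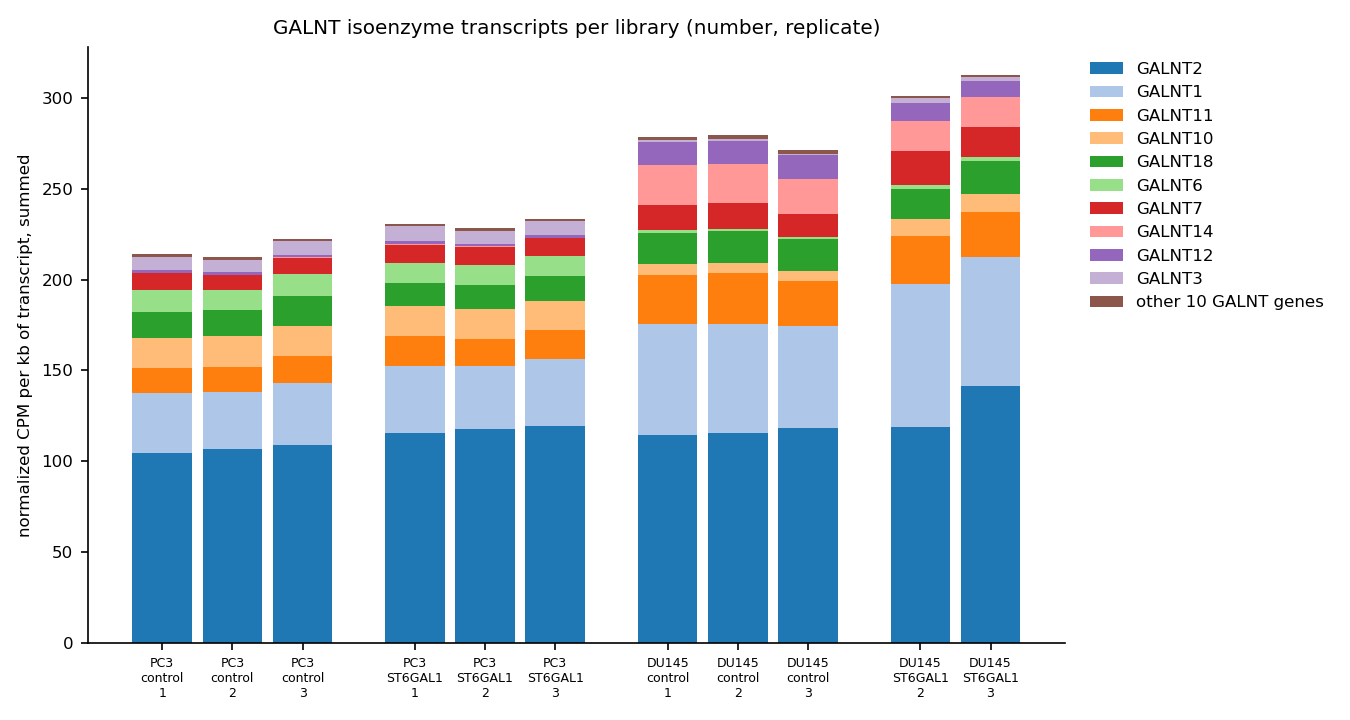
Normalized CPM per kb of the 20 GALNT genes stacked for each of the 11 libraries, with the 10 most abundant genes shown singly. GALNT2 is the largest block throughout, GALNT1 is larger in DU145 than in PC3, and the whole bars run from 212 to 222 in PC3 controls, 229 to 234 in PC3 with ST6GAL1, 271 to 279 in DU145 controls and 301 and 313 in DU145 with ST6GAL1.

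Among the 13 other GALNT genes, 5 were tested in each line. Of these 5, 1 was called higher in PC3, against 3.61% of genes. In DU145 1 was called higher and 1 lower, against 4.33% and 4.61% of genes. In PC3, GALNT14 was called higher, at 2, 0 and 1 counts in the 3 controls and 18, 15 and 14 with ST6GAL1, which is 15.6 times as much per total count (95% exact counting interval 5.04 to 78.6). It stayed a trace gene there, whereas DU145 controls held 46.7 to 53.8 CPM. In DU145 GALNT14 was lower with ST6GAL1, at 40.1 and 40.2 CPM, short of the fold threshold. GALNT18 was lower in PC3 by a log2 fold change of -0.20 (adjusted p = 0.00774). At an adjusted p under 0.05 alone, 2 of 5 were higher and 1 lower in PC3, against 18.8% and 18.5% of genes. By the same rule 1 was higher and 2 lower in DU145, against 10.7% and 9.42%. In DU145, GALNT6 was called higher, from 6.94, 6.47 and 6.96 to 12.2 and 12.1 CPM (log2 fold change 0.84, adjusted p = 5.84e-04 by edgeR), and GALNT16 was called lower, from 6.54, 6.09 and 7.78 to 3.42 and 3.85 CPM (log2 fold change -0.89, adjusted p = 0.00319 by edgeR). GALNT6 is the closest relative of GALNT3 in the family. It was read at 59.1 to 65.1 CPM in PC3 controls, so that both relatives were lower in DU145 controls than in PC3 controls and rose in DU145 with ST6GAL1.

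In DU145 GALNT3, GALNT7, GALNT10 and GALNT12 changed while their chromosomal neighbours on balance did not, and GALNT1 changed along with its neighbours. The median log2 fold change of the 50 nearest tested genes was 0.05 around GALNT3, 0.01 around GALNT10, 0.01 around GALNT12 and 0.02 around GALNT7 (0.15 among the 20 nearest). Around GALNT1 it was 0.31, with 43 of 50 neighbours higher with ST6GAL1, and 0.46 among the 20 nearest, with 19 of 20 higher. The rise of GALNT1 by 0.35 was thus close to the median of the stretch of chromosome 18 from 23689453 to 49460645. In PC3 the same 50-gene medians lay between -0.10 and 0.06 around all 10 members, and among 20-gene medians that around GALNT3 stood out at 0.40, with 13 of 20 higher.

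**Figure D5:**
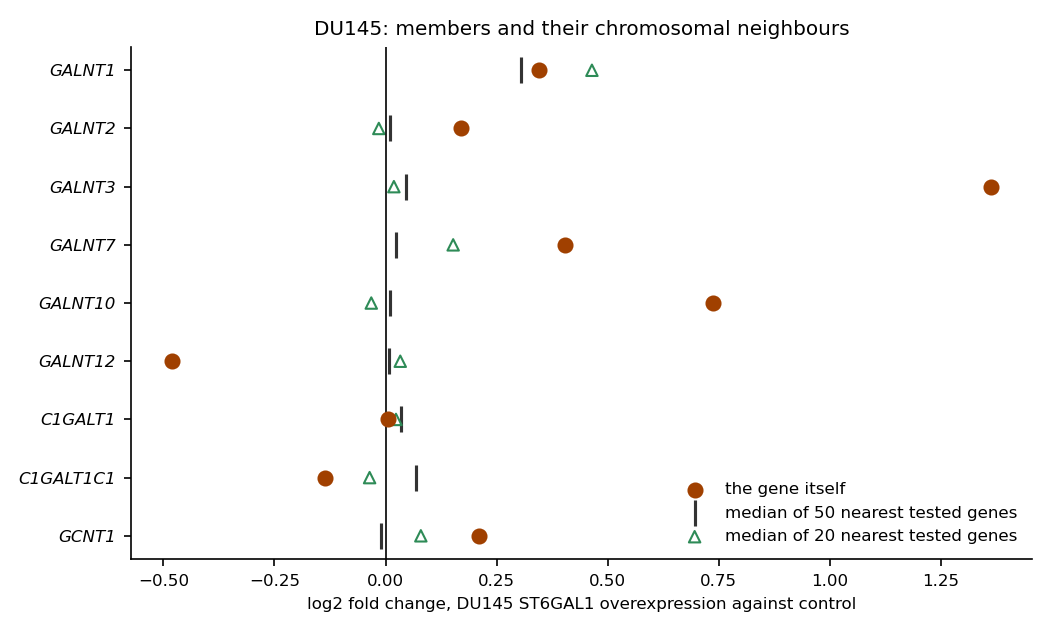
Log2 fold change in DU145 with ST6GAL1 overexpression of each tested member (circles), beside the median of its 50 (bars) and 20 (triangles) nearest tested genes on the same chromosome. The GALNT1 circle (0.35) lies between its neighbours' medians (0.31 and 0.46), and the GALNT3, GALNT10 and GALNT12 circles lie away from theirs.

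GALNT10 had the smallest adjusted p of the interaction, and the 5 genes whose log2 CPM followed it most closely over the 11 libraries were ITGB8, WWC3, MEF2C, TBL1X and THBS1 (Pearson's r of 0.996 to 0.997, out of 14951 genes). The libraries fall into the lines, so that these values mostly restate a shared order of 4 groups. ITGB8, an integrin β subunit, had mean levels of 31.6 and 41.7 CPM in PC3 control and overexpression cells, 0.428 in DU145 controls and 3.87 in DU145 with ST6GAL1, and THBS1, the matrix protein thrombospondin 1, had 322 and 267 CPM in PC3 and 42.1 and 105 in DU145. As with GALNT10, the means of all 5 were lower in DU145 controls than in PC3 and higher in DU145 with ST6GAL1. This order follows from choosing them by likeness over these same libraries. The mucin genes MUC5AC and MUC5B, with 280 to 1242 counts in PC3 libraries, had 0 counts in each of the 5 DU145 libraries.

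Beyond the members, B3GNT3 and GCNT4, which also act on the first sugars, were called in DU145 on low counts. Of 4 other core and extension enzymes 3 were tested there, and 2 were called lower, against 4.61% of genes. GCNT4 was read at 25, 27 and 10 counts in controls and 9 and 9 with ST6GAL1 (log2 fold change -1.35, adjusted p = 0.0402) and B3GNT3, which extends core 1, at 5.02, 4.82 and 5.01 CPM and 3.29 and 3.18 (log2 fold change -0.61, adjusted p = 0.0281). Neither call held in DESeq2 (adjusted p = 0.163 and 0.146). GCNT4 was also lost with limma-voom and without any single DU145 library other than control 3, and B3GNT3 without any other than overexpression 2. With all libraries kept, B3GNT3 lost its call in 3 of 9 alternatives, DESeq2 included, with log2 fold changes between -0.62 and -0.51 over the 9. In PC3 only B3GNT3 of these 4 was tested, with a log2 fold change of -0.24 that did not pass (adjusted p = 0.0857).

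Some sialyltransferases that cap O-GalNAc glycans rose. In DU145, 2 of 5 tested were called higher, against 4.33% of genes. The other 3 were below zero without passing an adjusted p under 0.05, and the median log2 fold change of the 5 was -0.16. ST3GAL1, which caps core 1, was at 7.995, 6.345 and 5.311 CPM in controls and 15.6 and 14.9 with ST6GAL1 (log2 fold change 1.22, adjusted p = 1.05e-04 by edgeR), and ST6GALNAC3 at 2.51, 2.54 and 1.87 CPM and 5.61 and 5.97 (log2 fold change 1.32, adjusted p = 2.82e-04 by edgeR). In PC3, 3 of 4 tested were above and 1 below zero, with a median log2 fold change of 0.12, and 1 was called higher, against 3.61% of genes. It was ST6GALNAC2, from 1.18, 1.71 and 1.96 to 2.38, 3.58 and 3.54 CPM (log2 fold change 1.00, adjusted p = 3.02e-04 by edgeR), and ST3GAL1, already at 352 to 367 CPM in PC3 controls, rose by 0.23. ST6GALNAC2 was among those below zero in DU145, with means of 4.75 CPM in controls and 3.37 with ST6GAL1.

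Of 19 mucins and mucin-like proteins that carry these glycans, 7 were tested in each line. In PC3, 3 of the 7 were called higher, against 3.61% of genes, with 4 above and 3 below zero and a median log2 fold change of 0.31. MUC5B rose from 24.1, 29.1 and 24.4 to 62.5, 68.5 and 58.5 CPM (log2 fold change 1.30), MUC5AC from 18.4, 19.4 and 18.3 to 34.0, 40.7 and 34.3 CPM (0.97), and MUC1, the transmembrane mucin, by 0.73. The gel-forming MUC5AC and MUC5B are neighbours on chromosome 11. In DU145, 3 of the 7 were above and 4 below zero, with a median log2 fold change of -0.51, and 2 were called higher, against 4.33% of genes. These were MUC1 at 23.6, 26.8 and 28.7 against 36.5 and 43.5 CPM (0.61) and SELPLG, the selectin ligand PSGL-1, at 44, 27 and 25 against 61 and 85 counts (1.009). MUC1 fell under the fold threshold without DU145 control 1 (0.52) or overexpression 3 (0.48), and SELPLG lost its call without control 2 or 3 (adjusted p up to 0.0975). PODXL, the sialomucin podocalyxin, named here after its values were seen, was lower in DU145 at 46.0, 45.7 and 40.5 CPM against 30.9 and 30.9 (log2 fold change -0.51, adjusted p = 0.00210 by edgeR), short of the fold threshold. CD24 was lower at an adjusted p under 0.05 in both lines (-0.24 in PC3 and -0.55 in DU145), without passing the fold threshold.

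The enzymes that supply UDP-GalNAc and its precursors showed few changes past the fold threshold. In PC3 none of 13 was called by edgeR, where 5.38% of genes were. At an adjusted p under 0.05 alone 6 of 13 passed, 5 lower and 1 higher, against 37.3% of genes (18.5% lower and 18.8% higher), with UAP1 (-0.25) and GALK2 (-0.23) the most certain. In DU145, 1 of 13 was called higher, against 4.33% of genes. It was GFPT2, an entry enzyme of the hexosamine pathway, from 34.5, 34.3 and 36.6 to 51.1 and 55.9 CPM (log2 fold change 0.61). It fell to 0.58 without DU145 control 2 and to 0.55 without overexpression 3. Among 11 enzymes that start other kinds of O-linked sugars, 10 were tested in each line and none was called by edgeR in either, with 4 in PC3 and 1 in DU145 at an adjusted p under 0.05, against 37.3% and 20.1% of genes. OGT, which adds GlcNAc to nuclear and cytosolic proteins, was higher by 0.35 in PC3 and by 0.36 in DU145.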

How the data were processed

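RNA-Seq counts were analysed for 11 libraries of PC3 and DU145 cells. In Galaxy, the authors removed adapters from single-end reads (Cutadapt), aligned to hg38 (HISAT2) and ran featureCounts, and the deposited values are raw counts by Entrez gene, without normalization. The annotation and the strand setting used for counting are not given in the sources used here, so overlapping genes cannot be separated.

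Each line was fitted with edgeR 4.0.16 in R 4.3.3 (filterByExpr defaults, TMM, robust quasi-likelihood test, Benjamini-Hochberg adjustment over all tested genes). The study used limma-voom, which was an alternative here, with limma 3.58.1. Others were DESeq2 1.42.0, RLE factors, no filter, at least 10 counts in every sample, a replicate block, each library left out, other thresholds, and subtraction of a loess trend on transcript GC content and length. One further length definition and left-out libraries for the GALNT sum were chosen after seeing the data. Standard errors are the log2 fold change over the root of the F statistic, and 95% intervals use the t distribution of that fit. CPM, also used to ask whether groups overlap, take TMM factors over all 11 libraries, and CPM per kb divide by the GENCODE Ensembl canonical transcript. Coordinates are those of RefSeq on GRCh38.p14. Counts summed to between 13194485 and 18201359 per library.

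The members and all lists were chosen with earlier results of these data known. All 10 members, and the called genes and 2 smallest adjusted p-values per line of each list, were eligible for naming. Genes named for likeness were the 5 closest by Pearson's r. On simulated counts, 99.0% of 199 changed genes were recovered in PC3 (3 false calls among 13430 genes), 92.0% of 199 in DU145 (13 among 13528), 85.4% of 198 for the interaction (13 among 14508) and 87.3% of 197 between the lines (4 among 14496), with true log2 fold changes of 1 and 1.5 in either direction. DU145 overexpression replicate 1 was not analysed here.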

Additional observations from a re-analysis of the deposited data

Results flagged for a closer look

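The response to raised ST6GAL1 depended on the line for 3 members, by the interaction test over 11 libraries. GALNT3 changed by 1.24 more in DU145 than in PC3 on the log2 scale (adjusted p = 0.00116 by edgeR), with 1.36 in DU145 and 0.11 in PC3. GALNT10 changed by 0.74 more (adjusted p = 1.18e-06), with 0.74 in DU145 and -0.01 in PC3. GALNT12 differed by -0.44 (adjusted p = 0.0473, close to the threshold), with -0.48 in DU145 and -0.04 in PC3, and that call was lost under most alternatives. Groups of 2 and 3 libraries are too small for a test of single outlying libraries.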

How the results depend on the processing

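Of 653 refitted values of the members' log2 fold changes 594 kept their direction and side of the threshold, 25 lost and 20 gained a call, and 14 changed sign. No member was called in PC3 and 2 were called in DU145 under every alternative but the removal of the fold threshold. Without it 5056 genes (728 with it) and 3 members passed in PC3, and 2747 (1222) and 5 members in DU145. At an adjusted p under 0.01 together with the fold threshold, the interaction gave 957 genes rather than 2949. The main interaction call used no fold threshold, so the effect of the stricter adjusted p alone was not tested. Between the control cells 4 rather than 8 members were called after the GC and length trend was subtracted. With single libraries left out, the number of genes called ran from 830 to 2072 in DU145 and from 2287 to 5161 for the interaction, the highest both without DU145 overexpression replicate 3, where the remaining library of that group is assumed to vary like the others.

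In DU145 C1GALT1 became -2.52e-04 with DESeq2, -1.12e-04 with RLE factors, -0.00631 without a filter and -0.0906 after the GC and length trend, and ran from -0.0529 to 0.0574 without single libraries. GALK2 became -1.94e-04 with limma-voom, -0.00299 with DESeq2, -0.00292 with RLE factors, -0.00929 without a filter and -0.0846 after the trend, and ran from -0.0843 to 0.0807. GALNT18 became 0.11 after the trend and ran from -0.0742 to 0.0591. In PC3 GALNT10 ran from -0.0273 to 0.0177, GALNT12 from -0.0895 to 1.14e-05 and GCNT1 from -0.0585 to 0.14. The interaction of GALNT2 ran from -0.11 to 0.13 and that of GALNT4 from -1.69 to 0.0387. Without length correction the share of GALNT2 in DU145 moved by -0.92 percentage points rather than up. The cause of these shifts was not tested.

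Medians over lists moved without a filter, which adds genes of few counts. In PC3 they became -0.12 for other core enzymes, 0.0106 for sialyltransferases and 0.72 for mucins, and in DU145 0.18 for the members, -0.34 for other core enzymes, 0.52 (from -0.16) for sialyltransferases and -0.01 for sugar donor enzymes.

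Deviations from the group means of same-numbered libraries had correlations of -0.00195, 0.0753 and 0.0608 in PC3, and of 0.0867 and 0.293 in DU145. The DU145 values cannot decide on pairing, because the deviations of 2 overexpression libraries mirror each other. The labels give no shared culture or day, so the numbers were not taken to pair the samples. With a replicate block 740 genes were called in PC3, 1517 in DU145 and 3551 for the interaction, with 0, 2 and 4 members. GALNT1 and GALNT7 were called and GALNT12 was not in that interaction. Low counts limit GALNT4 in both lines and GCNT1 and GALNT12 in PC3.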
